A study of Mus musculus with 4 samples.

Results

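The genes studied here were 9 scavenger receptor genes of mouse macrophages: Marco, Msr1, Cd163, Stab1, Scarb1, Scarb2, Cd68, Cd5l and Colec12. They were taken by gene symbol out of 19938 named genes on the array, and each had 1 probeset, the group of probes that reads one gene. The rule names the genes and uses no measured value, but the list was drawn up with earlier results of these data known. Macrophages were grown from bone marrow over 7 days with 10% medium conditioned by L929 fibroblasts, which supplies the growth factor M-CSF, then detached with 5 mM EDTA and replated. They stayed in medium or received the cytokine IL-4 for 24 h, and cells positive for the surface protein F4/80 were sorted to 99% purity before RNA isolation.

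There were 4 groups of 1 array each: untreated wild-type cells of BALB/c mice, wild-type cells treated with IL-4, untreated cells of 4get/Stat6-/- mice, and IL-4-treated cells of these mice. Where 4 values follow each other below, they are in this order. The 4get allele is a reporter of Il4 transcription, and Stat6 is the transcription factor that acts downstream of the IL-4 receptor. The wild-type mice are not labelled as carrying the reporter, and the inbred background of the 4get/Stat6-/- mice is not stated in the labels. The loss of Stat6, the reporter and any difference in background therefore cannot be told apart. Age, sex and the number of mice per array are also not stated there. IL-4 is stated at 10 µg/mL in the sample protocols and at 10 mg/mL in the series text. A single array per group leaves no replicate error and no test, so precision is limited by the number of arrays.

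Scavenger receptors are surface, lysosomal or secreted proteins that bind modified lipoproteins, bacterial surfaces, dying cells and other polyanionic or lipid ligands. They are grouped in classes by structure rather than by ancestry. In macrophages they carry ligands into endosomes and lysosomes, and Stab1 and Cd163 are often named among markers of alternatively activated cells. Values are RMA signals, a normalized and summarised probe brightness on the log2 scale. The floor was 2.52, the median of all probesets with 1 gene symbol. A gene is said to have risen or fallen where the log2 difference reached 1, which is 2-fold, with the higher array at or above the floor. Signals of different probesets are not set against each other, because probes differ in brightness.

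Promoter windows, from 250 bases before to 50 bases after the annotated start, were found for 6 of the 9 genes in a RefSeq table of build GRCm38.p6. They are shown for Stab1 and Scarb2, which fell together with IL-4 in wild-type cells, for Cd68, which stayed within the 2-fold rule in every comparison, and for Cd5l, which holds the only match to the Stat6-type motif among the 6 windows. The windows are chr14:31168592-31168891 on the minus strand for Stab1, chr5:92505608-92505907 on the minus strand for Scarb2, chr11:69666121-69666420 on the minus strand for Cd68 and chr3:87357631-87357930 on the plus strand for Cd5l. Capitals mark motif matches.
Stab1: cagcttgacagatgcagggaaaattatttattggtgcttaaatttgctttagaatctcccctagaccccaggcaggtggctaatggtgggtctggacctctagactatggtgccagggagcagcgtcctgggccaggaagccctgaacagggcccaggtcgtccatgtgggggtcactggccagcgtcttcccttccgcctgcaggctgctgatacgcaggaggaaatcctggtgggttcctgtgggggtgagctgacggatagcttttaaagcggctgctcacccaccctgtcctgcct
Scarb2: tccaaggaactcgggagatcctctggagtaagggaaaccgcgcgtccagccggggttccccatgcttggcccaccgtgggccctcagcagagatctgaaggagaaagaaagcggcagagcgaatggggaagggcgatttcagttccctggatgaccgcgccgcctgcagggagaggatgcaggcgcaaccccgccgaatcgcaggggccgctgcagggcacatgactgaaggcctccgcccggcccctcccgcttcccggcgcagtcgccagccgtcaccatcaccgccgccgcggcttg
Cd68: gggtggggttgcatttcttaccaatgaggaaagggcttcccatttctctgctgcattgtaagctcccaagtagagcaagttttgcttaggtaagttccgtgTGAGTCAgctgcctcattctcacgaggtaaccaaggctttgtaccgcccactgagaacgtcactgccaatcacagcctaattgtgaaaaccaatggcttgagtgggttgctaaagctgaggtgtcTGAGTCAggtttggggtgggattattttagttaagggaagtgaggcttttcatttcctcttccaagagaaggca
Cd5l: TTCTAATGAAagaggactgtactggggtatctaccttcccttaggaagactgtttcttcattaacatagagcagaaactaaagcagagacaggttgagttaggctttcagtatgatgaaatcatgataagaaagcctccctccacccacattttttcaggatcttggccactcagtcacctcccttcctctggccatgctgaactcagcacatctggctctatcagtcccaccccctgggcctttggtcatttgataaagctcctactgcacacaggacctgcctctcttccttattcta

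Both strands were searched for 6 motifs. TTCNNNNGAA, the spacing preferred by Stat6, matched in Cd5l at -250, the outer edge of the window, and 6.95% of 32851 windows of 300 bases held it. TGANTCA, the AP-1 site, matched at -149 and -24 in Cd68 and was held by 7.81% of windows. No match was found in the 6 windows to TTCNNNGAA, the spacing of other STAT proteins (8.30% of windows), to GAGGAAGT, a PU.1 site (3.20%), to TCACGTGA, the core of the lysosomal CLEAR element (0.974%), or to TGCTGAC, one arm of a MAF site (4.67%). TTCNNNNGAA and TTCNNNGAA differ in the spacing of the same ends, and no base was counted for both. A match is a description of letters in this window only.

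**Figure D1:**
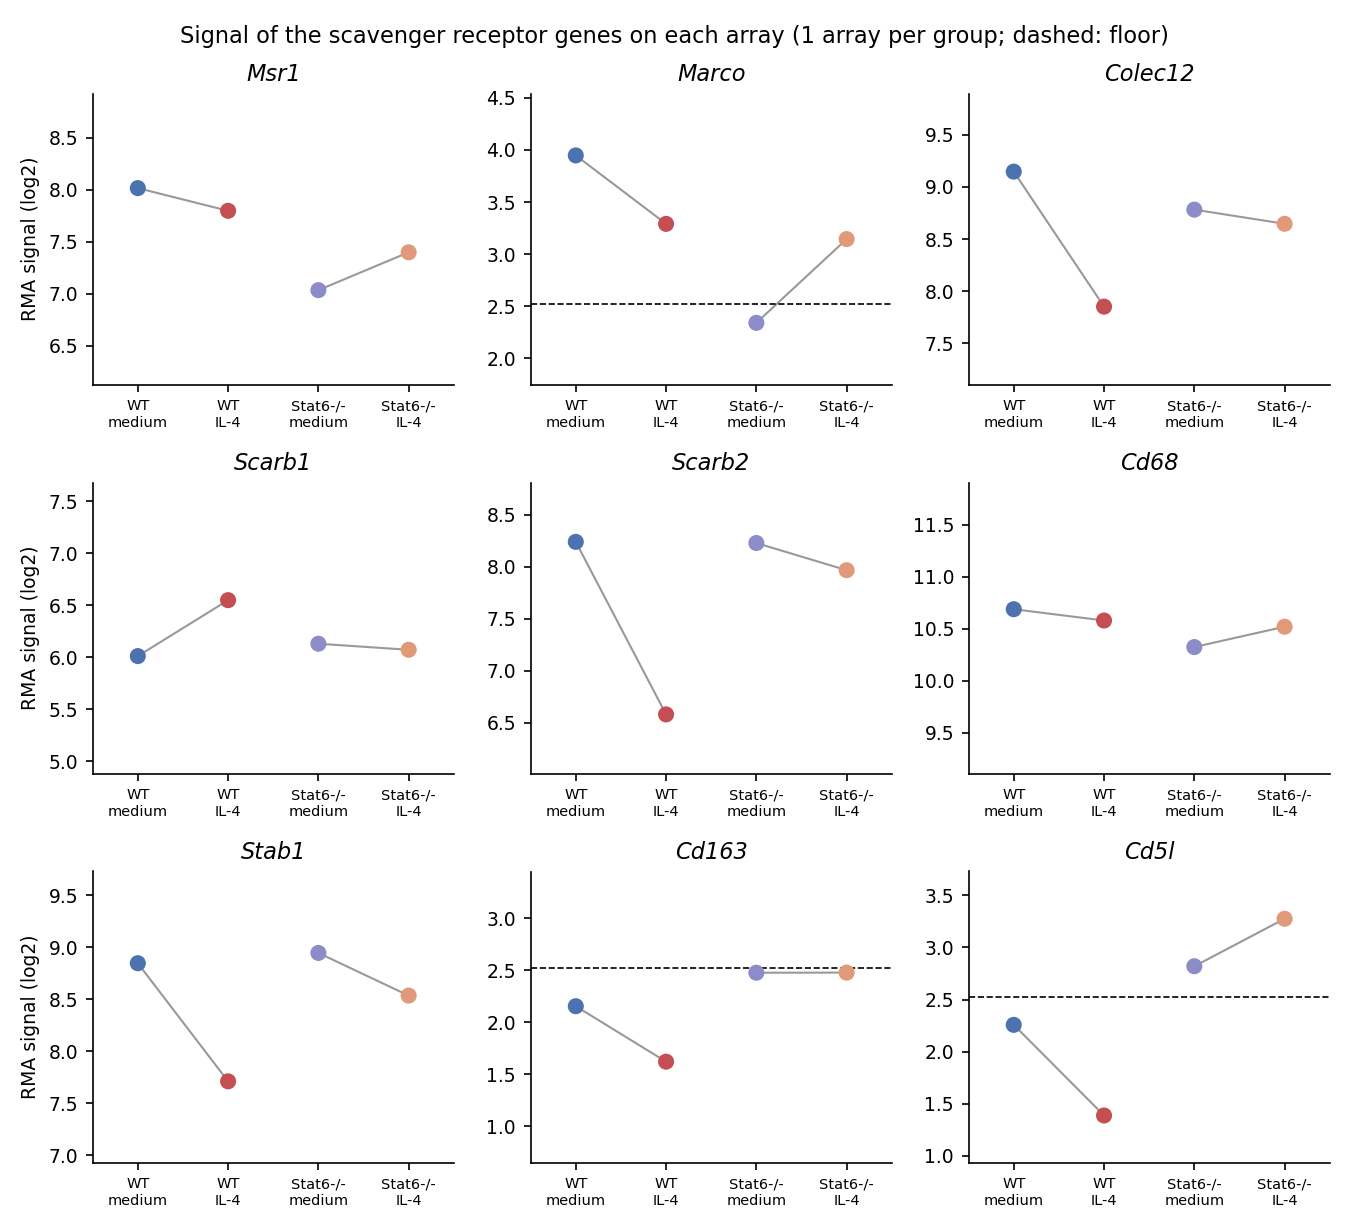
RMA signal on the log2 scale (vertical axis) of the 9 scavenger receptor genes on the 4 arrays (horizontal axis); each point is 1 array, lines join the cultures of one genotype, and the dashed line is the floor at 2.52. Every panel spans the same height on its own range, so slopes can be compared and heights cannot; Stab1, Scarb2 and Colec12 have a low point in wild type with IL-4, and Marco and Msr1 have one in Stat6-/- in medium.

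The genotype labels were checked first. Stat6 had a signal of 7.34 (untreated) and 6.68 (IL-4) in wild-type cells, and 4.54 (untreated) and 4.25 (IL-4) in Stat6-/- cells, so both Stat6-/- arrays lay below both wild-type arrays. All 10 macrophage markers on a fixed list were above the floor, with a summed linear signal of 9896 in untreated and 6907 in IL-4-treated wild-type cells, and 8909 and 8926 in the matching Stat6-/- cells. With IL-4 in wild type, 6 of these 10 fell (5 after quantile normalization was applied again and after trend removal) and 1 rose. Of all 10282 tested genes, 6.78% fell and 2.96% rose. The median difference of the markers was -1.14, and Adgre1, which encodes the F4/80 protein used for sorting, fell by 1.21. In Stat6-/- cells 0 of the 10 passed the 2-fold rule with IL-4, beside 0.355% of 10410 tested genes, with a median of -0.17. Lists for 8 other cell types had between 1 and 5 members above the floor. The neutrophil list, with 4 such members, summed to 70.5, 118, 62.0 and 62.4 in the order used above. For the dendritic cell list, with 2 such members, the sums were 29.4, 53.9, 31.0 and 36.8. T cell, B cell, and mast cell and basophil lists summed to between 19.4 and 29.4. The erythroid and megakaryocyte list, with 1 such member, summed to 621, 717, 282 and 240 in the order used above. Its other 4 genes on the array, Klf1, Alas2, Itga2b and Gp9, were under the floor on all arrays. The sum is therefore nearly all the signal of 1 gene. This gene had Stat6-/- minus wild-type differences of -1.18 in medium and -1.64 with IL-4, both past the rule.

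Stab1, Scarb1 and Colec12 are also genes of endothelial or stromal cells, so those markers are given beside them. Of 11 endothelial markers, 6 were under the floor on all arrays, among them the defining genes Cdh5, Tek and Tie1. The summed linear signal of this list was 79.4 (untreated) and 57.3 (IL-4) in wild-type cells, and 71.5 (untreated) and 68.5 (IL-4) in Stat6-/- cells. Of the 5 endothelial markers above the floor, 2 fell with IL-4 in wild type, Kdr by 2.43 and Pecam1 by 1.52. The differences of the other 3 were -0.30 for Stab2, 0.36 for Cldn5 and 0.71 for Vwf. Of all 10282 tested genes, 6.78% fell and 2.96% rose in this comparison. Of 10 fibroblast and stromal markers, 5 were under the floor on all arrays, among them Pdgfra, Dcn and Lum, and the list summed to between 47.8 and 57.9. Of the 5 tested with IL-4 in wild type, 1 rose, by 1.84, and 0 fell, with a median of 0.14. The same 2.96% and 6.78% of all tested genes stand beside these counts. Between IL-4-treated cells, 1 of the 5 was lower in Stat6-/- cells, with a difference of -1.83. Of all 10433 tested genes, 4.83% were lower and 4.01% higher there. The part of other cells in the results was not tested, and in bulk RNA fewer cells of a type and less RNA per cell cannot be told apart.

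In wild-type macrophages, IL-4 was compared with medium to see which receptors responded to the cytokine. Scarb2, Colec12 and Stab1 fell, and the other 6 genes did not pass the rule. These 3 of 9 genes stand beside 6.78% of 10282 tested genes that fell and 2.96% that rose, and beside the 6 of 10 macrophage markers that fell in the same comparison, whose part in the result was not tested. The share of increases among all genes past the rule was 30.4%, against 45.2% after quantile normalization was applied again and 46.0% after the trend with signal was removed, which moved the median of tested genes up by 0.13 and 0.12. The same 3 receptors fell under both.

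Scarb2, or LIMP-2, is a class B protein of the lysosomal membrane that carries the enzyme glucocerebrosidase to the lysosome. Its signal was 8.24 in untreated and 6.58 in IL-4-treated wild-type cells, and 8.23 and 7.97 in the matching Stat6-/- cells. The wild-type array with IL-4 was thus low and the other 3 were close together. Scarb2 fell by 1.66 with IL-4 in wild type, or 3.16-fold, and 1.56% of tested genes had a more negative difference. Without Stat6 the difference was -0.26.

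Colec12, a class A receptor with a collagen stalk and a C-type lectin head, measured 9.15 untreated and 7.85 with IL-4 in wild-type cells, and 8.78 untreated and 8.65 with IL-4 in Stat6-/- cells. From highest to lowest its arrays were untreated wild type, untreated Stat6-/-, IL-4-treated Stat6-/- and IL-4-treated wild type. It fell by 1.30 in wild type, or 2.46-fold, with 3.31% of tested genes more negative, and differed by -0.14 in Stat6-/- cells.

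Stab1, or stabilin-1, is a large class H receptor that takes up acetylated lipoprotein and the matrix protein SPARC and shuttles between the surface, endosomes and the Golgi network. It stood at 8.85 (untreated) and 7.71 (IL-4) in wild-type cells, and 8.94 (untreated) and 8.53 (IL-4) in Stat6-/- cells. It was lower with IL-4 in both genotypes, but passed the rule in wild type alone. There it fell by 1.14, or 2.20-fold, with 4.77% of tested genes more negative. Without Stat6 the difference was -0.41, and the difference between both IL-4 effects was -0.73, which did not pass the rule. The wild-type value is near the limit of the rule and ran from -1.15 to -1.03 over the other ways of processing.

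Scarb1, the class B receptor that takes cholesterol esters from high-density lipoprotein, was the 1 gene of 9 with a higher signal in wild type with IL-4. It measured 6.01 in untreated and 6.55 in IL-4-treated wild-type cells, and 6.13 and 6.07 in the matching Stat6-/- cells. The difference with IL-4 was 0.54 in wild type, a 1.45-fold difference that did not pass the rule. Its difference in Stat6-/- cells was -0.06, and 0.01 and 0.04 after quantile normalization was applied again and after trend removal.

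Cd68, or macrosialin, a heavily glycosylated late endosomal protein of the LAMP family counted as class D, had the narrowest range of the 9 genes. Its signals were 10.69 (untreated) and 10.58 (IL-4) in wild-type cells, and 10.32 (untreated) and 10.52 (IL-4) in Stat6-/- cells, a range of 0.36. With IL-4 it differed by -0.11 in wild type, which became 0.06 after quantile normalization was applied again and 0.02 after trend removal, and by 0.20 in Stat6-/- cells. Its difference therefore has no settled sign in wild type.

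**Figure D2:**
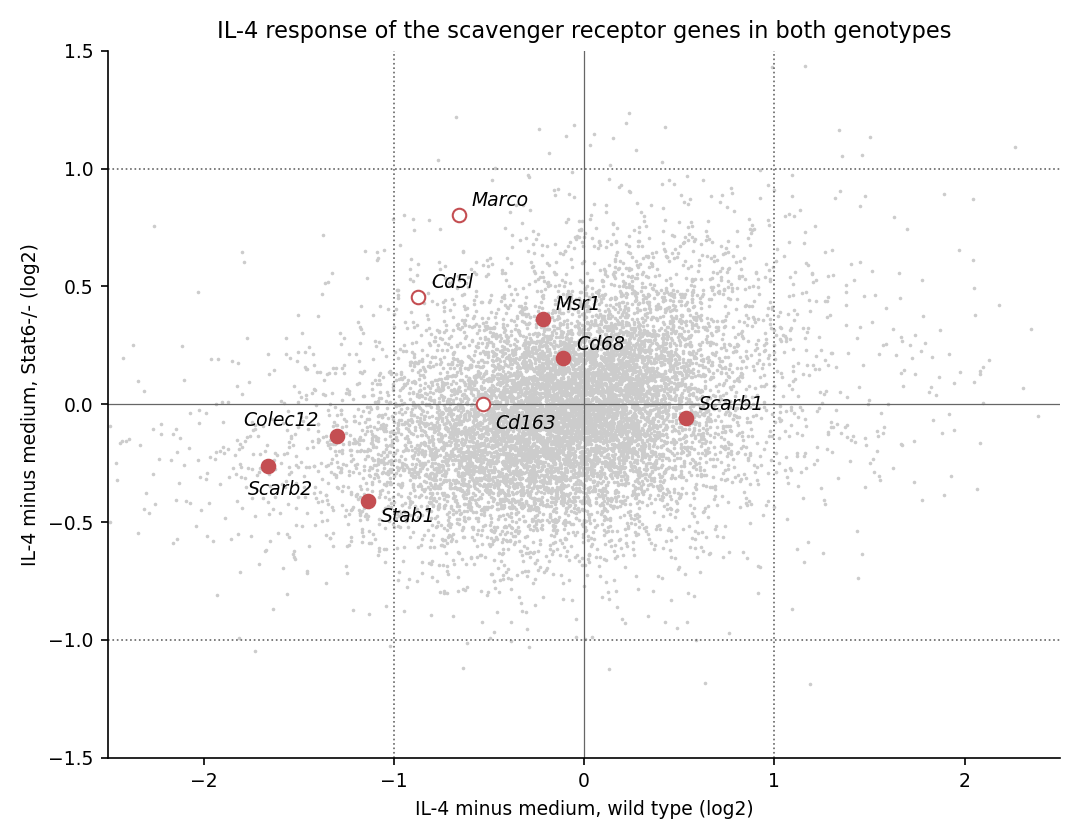
Log2 difference with IL-4 in wild type (horizontal axis) against that in Stat6-/- (vertical axis), 1 array against 1 array each; grey points are tested genes (10729 of 10798 lie within the axes), red points the scavenger receptor genes, open where an array was under the floor, and dotted lines mark the 2-fold rule. Scarb2, Colec12 and Stab1 lie past the rule on the wild-type axis only, and Marco and Cd5l have opposite signs on the axes.

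In Stat6-/- cells, the same treatment was compared to see which of these differences appeared without the factor. None of the 9 scavenger receptor genes passed the rule, where 0.355% of 10410 tested genes did. The differences of the 9 genes ran from -0.41 for Stab1 to 0.81 for Marco. Their median was 0.07 over the 8 tested genes, against -0.05 over all tested genes. Marco is among the 8 only through its IL-4 array, so its positive sign was fixed by the floor. In wild type Cd163 and Cd5l were under the floor on both arrays. The median of the 7 tested genes was -0.66, against -0.11 over all tested genes, and 6 of the 7 were below 0, as were 58.6% of tested genes.

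Marco, a class A receptor for bacteria and inhaled particles, was read close to the floor. Its signal was 3.95 in untreated and 3.29 in IL-4-treated wild-type cells, and 2.34 and 3.14 in the matching Stat6-/- cells. The highest array was wild type in medium, both IL-4 arrays lay close together, and Stat6-/- in medium was under the floor. The difference with IL-4 was -0.66 in wild type and 0.81 in Stat6-/- cells, and 0.778% of tested genes had a more positive difference in the latter. Neither passed the rule. Measured against the floor, the Stat6-/- array with IL-4 was at least 1.54-fold higher than that in medium.

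Msr1, the class A receptor for acetylated and oxidised lipoprotein, had its 2 lower values in Stat6-/- cells as well. It stood at 8.02 (untreated) and 7.80 (IL-4) in wild-type cells, and 7.04 (untreated) and 7.40 (IL-4) in Stat6-/- cells. Both wild-type arrays lay above both Stat6-/- arrays, and the IL-4 differences were -0.22 in wild type and 0.36 in Stat6-/- cells. Marco and Msr1 thus shared the place of their highest array, wild type in medium, and of their lowest, Stat6-/- in medium. Cd68 had the same places within its range of 0.36, while Colec12, also of class A, was lowest in wild type with IL-4.

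The genotypes were then compared within each culture. These differences use the same 4 arrays as the IL-4 comparisons and are no further measurements. In medium, Marco fell in Stat6-/- cells by 1.61 as measured and was at least 2.69-fold lower against the floor, with 0.117% of 10299 tested genes more negative. It was the 1 gene of 9 past the rule, where 1.15% of tested genes were lower and 0.301% higher in Stat6-/- cells. This call was lost with a floor at the 75th percentile, which all 4 Marco signals lay under. The share of increases among all genes past the rule was 20.8%, and 37.2% after quantile normalization was applied again, which moved the median of tested genes up by 0.13.

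Msr1 differed by -0.98 in medium, 1.97-fold lower in Stat6-/- cells and just short of the rule. It reached -1.04 with the arrays shifted to one median and was -0.83 at the other end of the range. Of tested genes, 1.26% were more negative. Colec12 and Cd68 differed by -0.37 and -0.36, Stab1 by 0.10 and Scarb1 by 0.12. Scarb2 differed by -0.01, which became 0.12 and 0.13 after quantile normalization was applied again and after trend removal.

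With IL-4, Scarb2 was 2.61-fold higher in Stat6-/- than in wild-type cells, a difference of 1.39, and 1.95% of 10433 tested genes were more positive. Cd5l passed the rule as well, with a difference of 1.89, but its wild-type array was under the floor and the bound of at least 1.69-fold lies below the rule. These were 2 of 9 genes, beside 4.01% of tested genes that were higher and 4.83% that were lower in Stat6-/- cells. Stab1 and Colec12 differed by 0.82 and 0.80, 1.77-fold and 1.74-fold higher, without passing the rule. Scarb1 differed by -0.48, Msr1 by -0.40, Marco by -0.15 and Cd68 by -0.06. The median over the 8 tested genes was 0.37, against -0.0001 over all tested genes, with 4 of the 8 above 0 and 4 below. Cd5l is among the 8 only through its Stat6-/- array, so its positive sign was fixed by the floor. The median of 0.37 depends on this gene, and no excess over all tested genes is read from it.

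Cd5l, a secreted protein of the scavenger receptor cysteine-rich family that binds lipid and supports macrophage survival, was read on the Stat6-/- arrays only. It stood at 2.26 untreated and 1.39 with IL-4 in wild-type cells, both under the floor, and at 2.82 and 3.28 in the matching Stat6-/- cells. In medium the Stat6-/- array was at least 1.23-fold higher. The difference with IL-4 in Stat6-/- cells was 0.46. Cd163, the receptor for haptoglobin bound to haemoglobin, which has a row of the same cysteine-rich domains, was under the floor on all 4 arrays. Its signals were 2.16 in untreated and 1.62 in IL-4-treated wild-type cells, and 2.48 and 2.48 in the matching Stat6-/- cells, and no fold is given for it. For Cd5l and Cd163 neither wild-type array reached the floor.

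The IL-4 difference of wild-type cells minus that of Stat6-/- cells gives how the response differed with genotype. It passed the rule for Marco (-1.46), Scarb2 (-1.40), Cd5l (-1.33) and Colec12 (-1.16), 4 of 9 genes, beside 5.77% of 10798 tested genes with a negative and 3.2% with a positive difference. With signals under the floor raised to it, Marco was at -1.28 and Cd5l at -0.46, which is no longer past the rule. For Scarb2 and Colec12 the wild-type array with IL-4 was the lowest and the other 3 lay within 0.27 and 0.50 of each other, while for Marco opposite differences in both genotypes added up. The others were Stab1 at -0.73, Scarb1 at 0.60, Msr1 at -0.58, Cd163 at -0.53 under the floor and Cd68 at -0.30. The share of increases among all genes past the rule was 35.7%, and 47.7% after quantile normalization was applied again and 46.4% after trend removal.

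**Figure D3:**
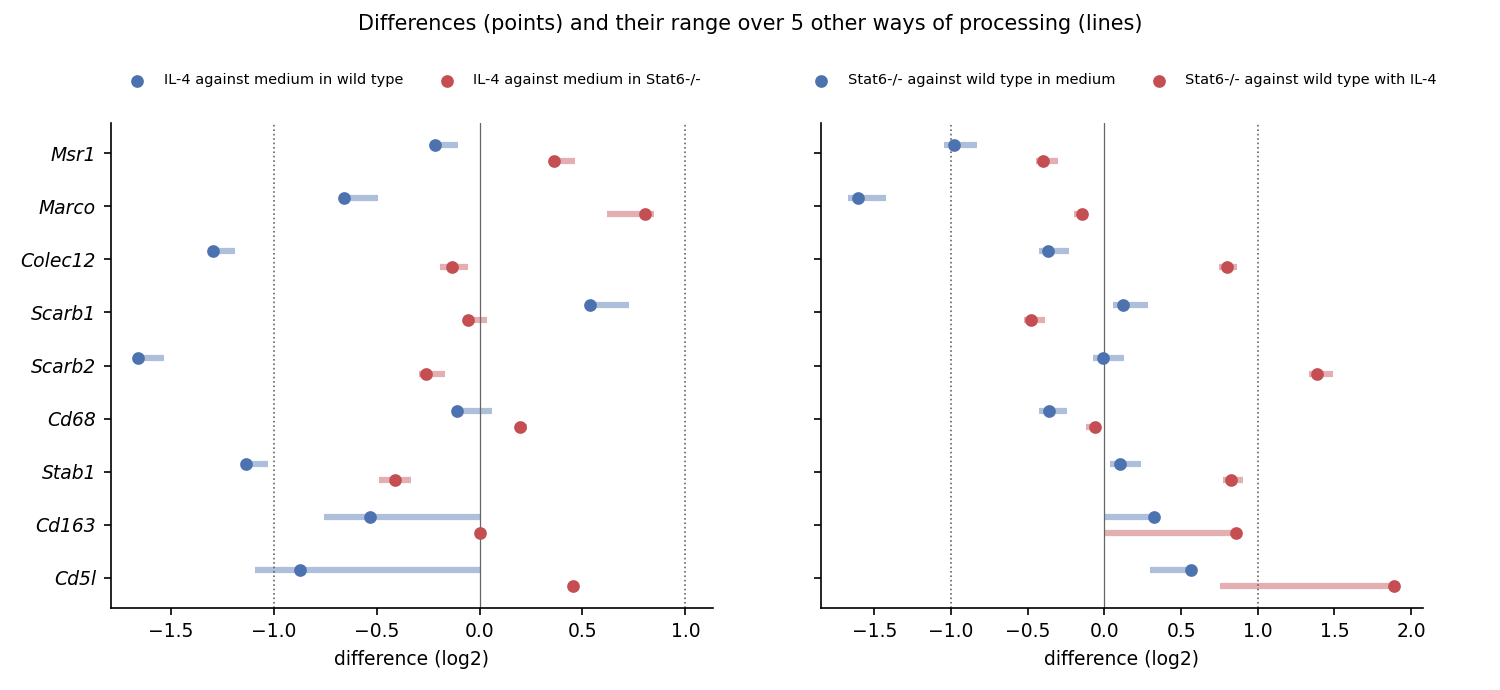
Log2 differences (horizontal axis) of the 9 scavenger receptor genes (vertical axis) with IL-4 in each genotype (left) and between genotypes in each culture (right); points are the values as reported, lines their range over 5 other ways of processing, and dotted lines the 2-fold rule. Scarb2, Colec12 and Stab1 stay past the rule in wild type, while Cd5l crosses it with IL-4 between genotypes once signals are raised to the floor.

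For the 5 genes past the rule in a comparison of a pair of arrays, the genes with the most similar pattern were looked up among 9073 genes above the floor on every array. Likeness was the root mean square distance between log2 signals over the 4 arrays, each gene centred on its own mean. Nearest to Scarb2 were Elk3 (0.025), a transcription factor, Slfn3 (0.031) and Dab2 (0.034), an endocytic adaptor. Scarb2 itself had a root mean square of 0.69 about its mean. Nearest to Colec12 were Pik3r1 (0.014), a regulatory subunit of phosphoinositide kinase, Fgd3 (0.017) and Morc3 (0.023). Nearest to Stab1 were Prkacb (0.018), a catalytic subunit of protein kinase A, Arel1 (0.019) and Commd8 (0.026).

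Matches to the weakly expressed genes were less close. Nearest to Marco were Plau (0.093), which encodes urokinase, Pclaf (0.10) and Il1rn (0.14), the interleukin-1 receptor antagonist. Plau stood at 7.66 (untreated) and 6.91 (IL-4) in wild-type cells, and 6.20 (untreated) and 6.95 (IL-4) in Stat6-/- cells. Plau was picked for this likeness, so its low value in untreated Stat6-/- cells adds nothing to the reading of Marco. Nearest to Cd5l were Gyg (0.07), which primes glycogen synthesis, Selenbp1 (0.16) and Dbp (0.18). Gyg stood at 5.84, 4.93, 6.22 and 6.79 in the same order of arrays.

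Genes around the scavenger receptors were taken from 4 lists. Their counts with IL-4 in wild type stand beside the 6.78% of tested genes that fell and the 2.96% that rose, and their medians over tested members beside the -0.11 of all tested genes. With IL-4 in Stat6-/- cells, 0.355% of 10410 tested genes passed the rule, so counts of 0 in these lists lie near that share. Of 27 other scavenger receptors on the array, 17 were tested, of which 3 fell and 1 rose with IL-4 in wild type, with a median difference of -0.30. Cd14, the co-receptor for lipopolysaccharide, fell by 2.74, Pecam1, an adhesion protein that is also an endothelial marker, by 1.52, and Cxcl16, a membrane-bound chemokine that takes up oxidised lipoprotein, by 1.03, a call lost after trend removal. Clec7a, the receptor for fungal glucans, rose by 1.07. In Stat6-/- cells 0 of the 27 passed the rule with IL-4.

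Cd36, the class B relative of Scarb1 and Scarb2 and a receptor for oxidised lipoprotein and fatty acids, stood at 10.28 in untreated and 10.65 in IL-4-treated wild-type cells, and 9.28 and 9.34 in the matching Stat6-/- cells. Both wild-type arrays lay above both Stat6-/- arrays. Cd36 fell in Stat6-/- cells by 1.31 with IL-4 and, at the limit of the rule, 2.01-fold in medium, a call lost after quantile normalization was applied again and after trend removal. Among the 3 class B genes, wild type with IL-4 was low for Scarb2, and the genotypes separated for Cd36. Scarb1 was highest in wild type with IL-4, but its difference of 0.54 from medium did not pass the rule.

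**Figure D4:**
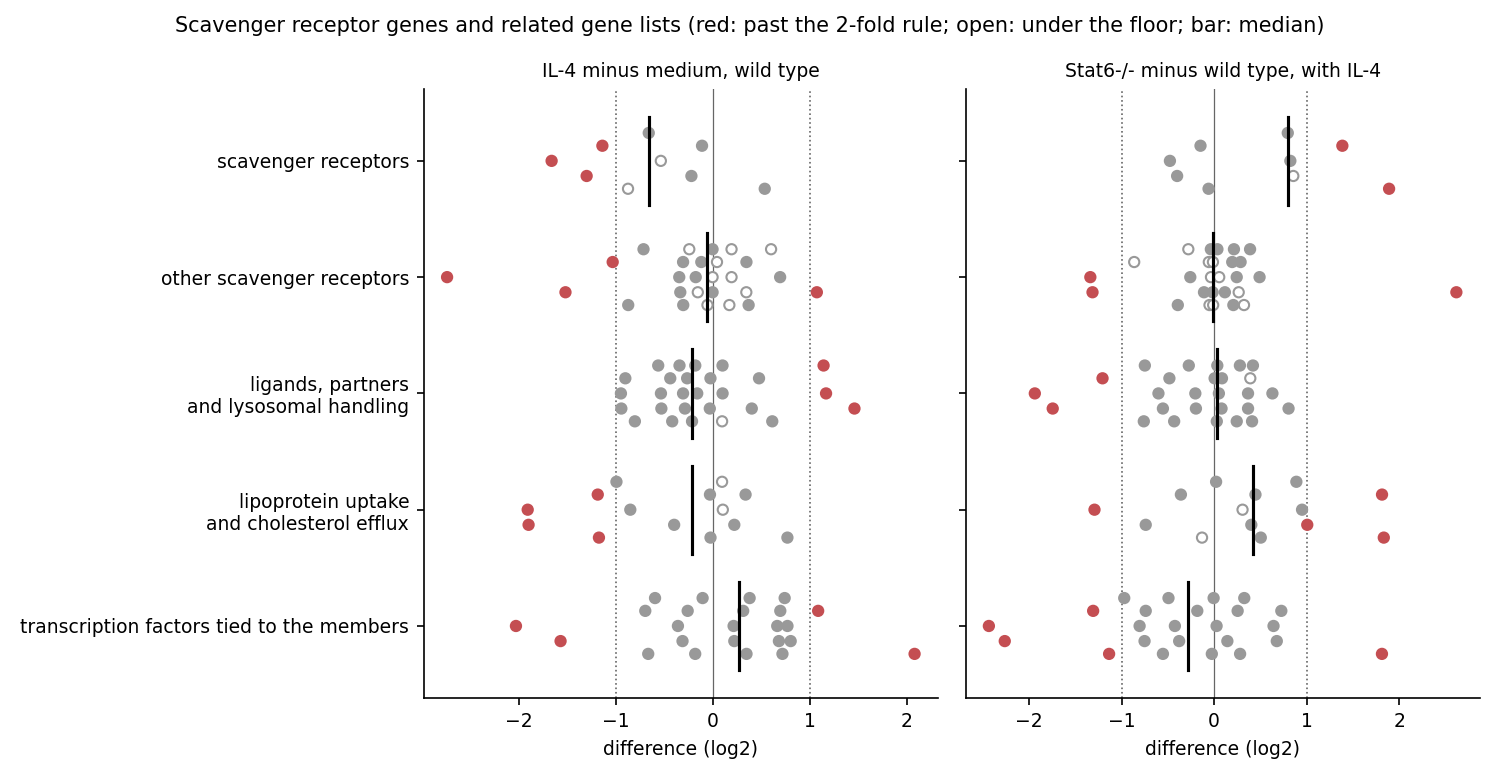
Log2 differences (horizontal axis) of the scavenger receptor genes and of the 4 related lists (vertical axis) with IL-4 in wild type (left) and between genotypes with IL-4 (right); each point is 1 gene, red past the 2-fold rule, open under the floor, and bars are medians over all members on the array. Over all members, medians of the 9 scavenger receptor genes lie at -0.66 (left) and 0.80 (right). Those of the other lists lie between -0.21 and 0.27 (left) and between -0.28 and 0.43 (right). Over tested members the scavenger receptor genes lie at -0.66 and 0.37, and lipoprotein uptake and cholesterol efflux at -0.62 and 0.48. The 0.37 depends on Cd5l, which was tested only through its Stat6-/- array.

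Of 27 genes of ligands, partners and lysosomal handling, 26 were tested, of which 3 rose and 0 fell with IL-4 in wild type, with a median of -0.24. They were Fasn (1.46), the fatty acid synthase, which Cd5l is known to inhibit in fat cells, Blvrb (1.17) and Anxa2 (1.14). Blvrb encodes biliverdin reductase B, and Anxa2 a membrane-binding annexin. The lysosomal membrane genes Lamp2, of this list, and Lamp1, of the other scavenger receptors, differed by -0.34 and -0.30. Both were named after their values were seen, so they cannot stand for lysosomal membrane genes as a group. None of the 27 passed the rule with IL-4 in Stat6-/- cells (0 genes), beside 0.355% of tested genes. Between IL-4-treated cells, the Stat6-/- minus wild-type differences of Fasn, Anxa2 and Blvrb were -1.94, -1.74 and -1.21.

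Of 14 genes of lipoprotein uptake and cholesterol efflux, 12 were tested, of which 4 fell and 0 rose with IL-4 in wild type, with a median of -0.62. These were Sorl1 (-1.91), a sorting receptor of the LDL receptor family, Mylip (-1.90), the ligase that marks the LDL receptor for degradation, Plin2 (-1.18), which coats lipid droplets, and Pltp (-1.17), a phospholipid transfer protein. The same 4 genes differed in Stat6-/- cells by 0.01, -0.18, -0.15 and -0.20. Lpl, the lipoprotein lipase, fell in Stat6-/- cells by 1.29 with IL-4 and by 1.03 in medium, the latter a call lost after quantile normalization was applied again and after trend removal. Apoc1, an apolipoprotein, was higher in Stat6-/- cells with IL-4 by 1.01, a call lost after trend removal and with arrays shifted to one median.

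Of 24 transcription factors linked to these genes, all 24 of them tested, 2 rose and 2 fell with IL-4 in wild type, with a median of 0.27. Maf, which drives macrophage receptor genes, fell by 2.03, and Spic, a factor of red pulp macrophages that handle haem, went from 3.59 to 2.02, under the floor, at least 2.09-fold lower. Irf4 rose by 2.08 and Srebf2, the regulator of cholesterol synthesis, by 1.09. Of the 24, 0 passed the rule with IL-4 in Stat6-/- cells, beside 0.355% of tested genes. Nfe2l2, the factor of the antioxidant response that can act on Marco, stood at 7.70, 8.47, 7.27 and 7.34 in the order used above and had a Stat6-/- minus wild-type difference of -1.13 with IL-4. Maf stood at 8.15, 6.13, 8.02 and 7.94, with the low value on the array where Scarb2, Colec12 and Stab1 were low. Maf was named for the size of its difference, and 6.78% of tested genes fell in the same comparison. A link between Maf and these receptors was not tested.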

How the data were processed

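The deposited table holds a log2 value for each probeset on each array. The authors ran RMA with Affymetrix Expression Console, per the submitters' processing notes, which corrects background, normalizes by quantiles and summarises probes. Versions and the genome build: not given in the sources used here. RMA draws low signals together, so differences of weak genes are understated. Base 2 was inferred from the values' range.

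Of 35557 probesets, 21789 had 1 gene symbol in the platform annotation; the brightest by mean over the 4 arrays stood for each gene. Differences and the 2-fold rule were computed on the whole table (Python 3.11.15, pandas 2.3.3) and tested on simulated data. No p-value was computed. Lowess (fraction 0.3, statsmodels 0.14.6) removed the trend with signal in one alternative. The members and lists were chosen with earlier results of these data known. Named were all members, Stat6, up to 6 genes past the rule from each list, and the 3 nearest genes of each member past it; other genes are marked or serve as markers.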

Additional observations from a re-analysis of the deposited data

Results flagged for a closer look

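For 6 of the 9 genes the difference with IL-4 had opposite signs in wild-type and Stat6-/- cells, each from 1 pair of arrays per genotype, and this difference was not tested. Of 10798 tested genes, 38.8% had opposite signs as well. The wild-type effect minus the Stat6-/- effect was -1.46 for Marco, -1.33 for Cd5l, 0.60 for Scarb1, -0.58 for Msr1, -0.53 for Cd163 and -0.30 for Cd68. Marco and Cd5l passed the 2-fold rule. Cd5l was under the floor on both wild-type arrays, where its difference became 0 with signals raised to the floor. The sign was not settled for Cd68 in wild type or for Scarb1 in Stat6-/- cells, as both turned after quantile normalization was applied again and after trend removal. For Cd163 the Stat6-/- difference was 0.00133, so its sign carries no information, and the gene was under the floor on every array.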

How the results depend on the processing

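The 3 receptors that fell with IL-4 in wild type, Scarb2, Colec12 and Stab1, passed the rule under all 8 alternatives. Only quantile normalization applied again, the shift to one median and trend removal could change their differences. A higher floor could remove their calls, while the remaining alternatives could not. In Stat6-/- cells 0 genes passed, except 1, Marco, at a 1.5-fold rule. Between genotypes in medium, where 1 gene passed, 2 passed with the arrays shifted to one median and 2 at the 1.5-fold rule, Marco and Msr1 in both, and 0 with a floor at the 75th percentile. Between genotypes with IL-4, where 2 passed, Scarb2 alone (1) passed with the floor at the 75th percentile and with signals raised to the floor, and 4 passed at the 1.5-fold rule. For the difference of IL-4 effects, where 4 passed, 2 did so with the floor at the 75th percentile. Of 225 recomputed single differences, 209 kept sign and call, 7 small ones changed sign, 6 of Cd163 and Cd5l became 0 with signals raised to the floor, 2 of Cd5l fell short of the rule and 1, Msr1, reached it. No called difference changed sign. The mean of all probesets per gene changes nothing for these genes, which have 1 probeset each. Raising signals to the floor changes nothing for genes above it on every array. The 209 therefore include differences that could not change. Over all genes, the 1.5-fold rule gave 2907 calls against 1001 with IL-4 in wild type, 596 against 37 in Stat6-/- cells, 1114 against 149 between genotypes in medium, 2398 against 922 with IL-4 and 2830 against 969 for the difference of effects. The floor at the 75th percentile gave 20 with IL-4 in Stat6-/- cells and 93 between genotypes in medium. No paired analysis was possible because each group holds 1 array.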
